A study of Mus musculus with 6 samples.

Results

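The transcripts of 10 core interferon-stimulated genes were compared between bone marrow macrophages with and without RKIP, the Raf kinase inhibitor protein encoded by Pebp1. The 10 genes were Isg15, Usp18, Ifit1, Ifit2, Ifit3, Rsad2, Mx1, Zbp1, Ifi44 and Ifi27l2a. They were chosen by name, with earlier results of these data known, and each had 1 row among the 27458 genes of the deposited table. The cells were primary mouse bone marrow macrophages treated with macrophage colony-stimulating factor (M-CSF), the growth factor that drives macrophage formation from marrow. There were 3 wild-type (WT) libraries, from RKIP+/+ mice, and 3 knockout (KO) libraries, from RKIP-/- mice. Both groups had the same M-CSF treatment. Strain, age and sex were not given in the sources used here. The labels do not say whether the libraries of a genotype came from separate animals, so the p-values speak only of differences among libraries that may be technical replicates. Pebp1 checked the labels: it stood at 39.2, 33.2 and 39.0 FPKM (a level scaled to transcript length and library depth) in WT, and its estimated count was 0 in all 3 KO libraries. Totals were 53188659 to 55255365 estimated counts in the WT libraries and 63607276 to 70059042 in the KO libraries.

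Interferons are secreted cytokines that act through cell surface receptors and the kinases Jak1 and Tyk2. These activate transcription factors that bind a DNA element, the interferon-stimulated response element, in front of the responding genes. Macrophages are known to keep a low level of this response without infection. The 10 genes are among its common readouts: a ubiquitin-like modifier and the protease that removes it, RNA-binding proteins, antiviral enzymes and a nucleic acid sensor.

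Promoter sequences were read because the genes share a response, and they are shown for the members in which the core of the element, GAAANNGAAA on either strand, was found. RefSeq promoter windows on GRCm38.p6, from 250 bases before to 50 bases after the start of transcription, were matched for 6 of the 10 members: Isg15, Ifit1, Ifit2, Ifit3, Rsad2 and Ifi44. Matches to the core are in capitals. The 3 matches in Isg15 overlap one another by 4 bases each, so its capitals run together.
Isg15, chr4:156200855-156200916, minus strand: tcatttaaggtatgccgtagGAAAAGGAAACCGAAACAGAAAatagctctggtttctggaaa
Ifit1, chr19:34640765-34640833, plus strand: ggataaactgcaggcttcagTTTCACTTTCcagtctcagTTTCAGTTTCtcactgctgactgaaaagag
Ifit3, chr19:34583353-34583436, plus strand: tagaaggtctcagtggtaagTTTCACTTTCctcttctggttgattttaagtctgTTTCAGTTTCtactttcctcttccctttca
Rsad2, chr12:26456543-26456592, minus strand: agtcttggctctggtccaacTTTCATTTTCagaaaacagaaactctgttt
The first bases of the matches lay 78 to 66 bases before the start of Isg15, 104 and 85 before that of Ifit1, 156 and 122 before that of Ifit3, and 120 before that of Rsad2. These letters were not in the windows of Ifi44 or in either of the 2 windows of Ifit2. Across all 32851 promoter windows 3.44% held at least 1 match and 0.225% held 2 or more. A match is a description of the sequence and not a measured binding site.

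Lower levels in KO were the rule among the 10 genes. All 10 had negative log2 fold changes, with a median of -0.69, against -0.01 over all 11636 tested genes. Of the 10, 8 were called lower, 0 higher, and Ifit1 and Ifit2 did not pass (edgeR quasi-likelihood test, two-sided, Benjamini-Hochberg adjusted p under 0.05). Of all tested genes, 19.4% were called lower and 20.3% higher. The 10 genes were chosen with earlier results of these data known, so the contrast with such shares is a description and not a test. In 7 of the 10, every KO library lay below every WT library, as it did for 19.1% of tested genes. Isg15, Ifi44 and Usp18 were called lower by at least 2-fold, a size of fall reached by 1.98% of tested genes. All 10 genes entered the test, which needed a mean of 1 FPKM over the 6 libraries. Ifi44 entered through its WT level, since its KO mean was under 1 FPKM. The summed level of the neutrophil marker genes fell as well, from 86.6 to 174 FPKM in WT to 16.8 to 17.6 in KO. In a bulk sample, fewer cells of a type and less RNA per cell cannot be told apart.

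**Figure D1:**
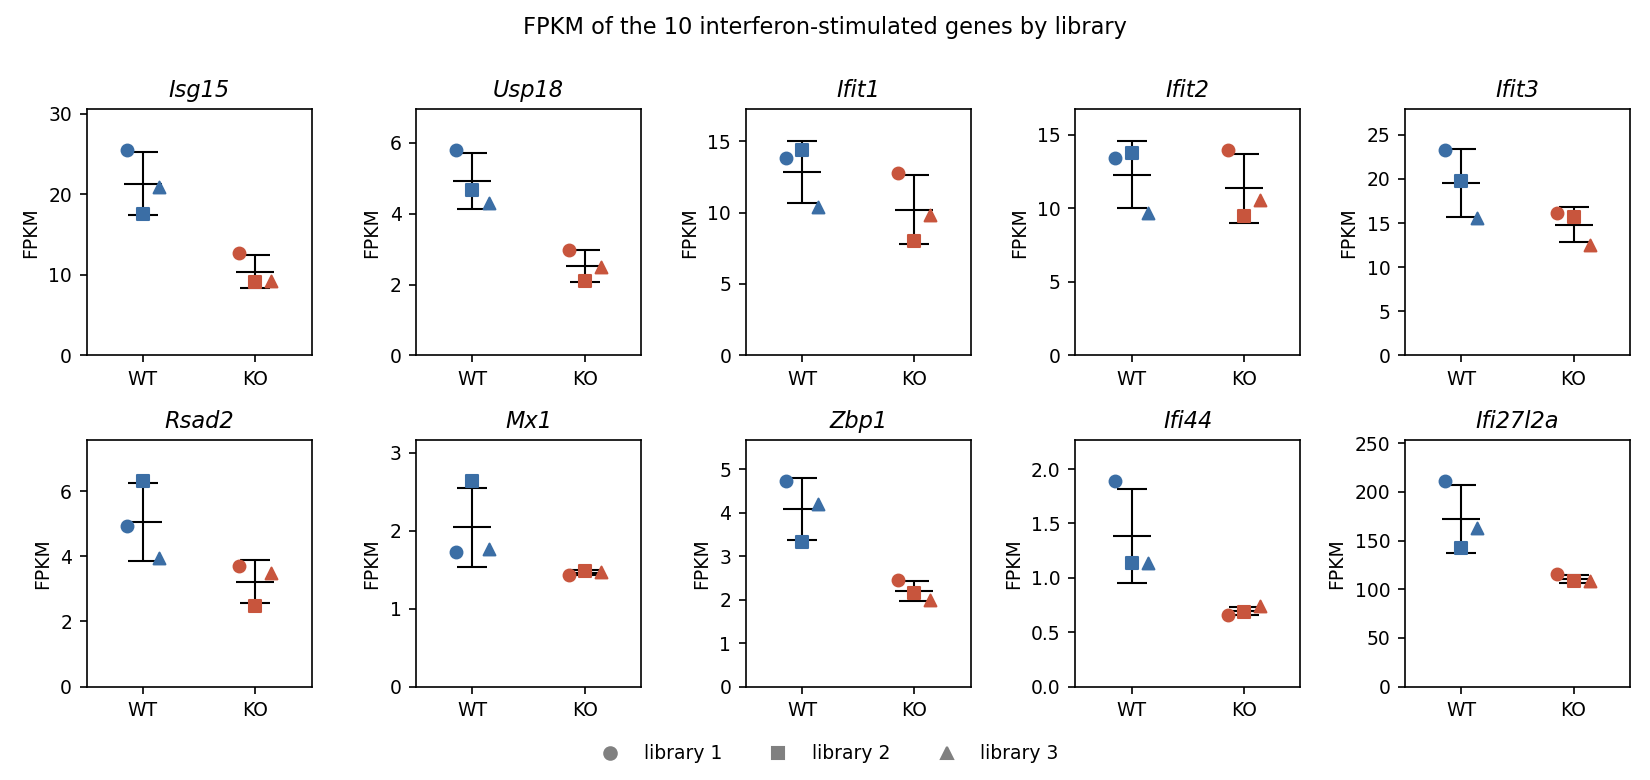
FPKM (y axis, from 0, a separate scale for each gene) of the 10 genes in 3 WT (blue) and 3 KO (red) libraries, with marker shapes for library numbers and bars for the mean and SD. Isg15, Usp18, Rsad2, Mx1, Zbp1, Ifi44 and Ifi27l2a show no overlap between genotypes, while Ifit1, Ifit2 and Ifit3 do.

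Isg15 and Usp18 form the ISG15 cycle. Isg15 encodes a ubiquitin-like protein that is attached to other proteins, and Usp18 encodes the protease that removes it and that also dampens the type I interferon receptor. Isg15 stood at 25.5, 17.6 and 20.9 FPKM in WT libraries 1 to 3 and at 12.7, 9.18 and 9.20 in KO libraries 1 to 3. The highest KO library was thus below the lowest WT library. The group values were 21.3 ± 3.96 FPKM (SD, n = 3) in WT and 10.4 ± 2.05 (n = 3) in KO, a 2.13-fold fall (log2 fold change -1.09 ± 0.16, edgeR, adjusted p = 0.000301). Usp18 stood at 5.80, 4.67 and 4.30 FPKM in WT and at 2.98, 2.10 and 2.50 in KO. It fell 2.02-fold without overlap (log2 fold change -1.01 ± 0.15, edgeR, adjusted p = 0.000282). A processed pseudogene shares 482 bases with Isg15 at 95.2% identity, so some of its reads are uncertain, although that pseudogene was listed at 0.121 to 0.274 FPKM. A non-coding gene, Gm44148, overlaps Usp18 on the other strand and was listed at 0 to 0.335 FPKM. In the table's coordinates, whose genes match GRCm38, Isg15 (ENSMUSG00000035692) at chr4:156199455-156200796 lies on the minus strand and Usp18 (ENSMUSG00000030107) at chr6:121245906-121270917 on the plus strand.

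The wider ISG15 pathway had calls in both directions. Of the 7 listed genes in the table, 3 fell, 2 rose and 2 did not pass, where 19.4% of all tested genes fell and 20.3% rose. The falls include Isg15 and Usp18 themselves, and the remaining genes are too few to be set against those shares. Beside Isg15 and Usp18, the conjugating enzyme gene Ube2l6 fell 1.23-fold, from 21.9 ± 2.19 to 18.5 ± 0.848 FPKM (edgeR, adjusted p = 0.00838). The ligase genes Arih1 and Trim25 rose 1.17-fold and 1.10-fold. Uba7, the activating enzyme, averaged 9.87 ± 0.605 FPKM in WT against 9.94 ± 0.475 in KO, and Herc6, the main mouse ligase, 2.63 ± 0.255 against 2.97 ± 0.147. With an offset fitted to length and GC content of the transcripts in each library (the length and GC offset), the calls of Ube2l6, Arih1 and Trim25 ended (edgeR, adjusted p = 0.132, 0.985 and 0.440).

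The 3 Ifit genes, which lie in 1 cluster on chromosome 19, had the smallest log2 fold changes of the 10 in the edgeR fit without the offset. With the length and GC offset that of Ifi27l2a (-0.30) was smaller than those of Ifit1 (-0.40) and Ifit3 (-0.34). They encode proteins with tetratricopeptide repeats that bind viral RNA, and Ifit1 binds RNA whose cap lacks the methyl marks of host mRNA. Ifit1 stood at 13.8, 14.4 and 10.4 FPKM in WT and at 12.8, 8.02 and 9.81 in KO, and Ifit2 at 13.4, 13.8 and 9.68 in WT and 14.0, 9.51 and 10.6 in KO. KO library 1 lay within the WT range for Ifit1 and above every WT library for Ifit2, so the genotypes overlapped. The table places Ifit1 (ENSMUSG00000034459) at chr19:34640871-34650009, Ifit2 (ENSMUSG00000045932) at chr19:34550694-34576419 and Ifit3 (ENSMUSG00000074896) at chr19:34583531-34588731, all on the plus strand. The log2 fold changes of Ifit1 and Ifit2 were -0.38 ± 0.16 (Ifit1, edgeR, adjusted p = 0.0740) and -0.16 ± 0.15 (Ifit2, adjusted p = 0.403). Ifit3 stood at 23.3, 19.8 and 15.6 FPKM in WT and at 16.2, 15.7 and 12.6 in KO, and WT library 3 lay below KO libraries 1 and 2. It was called lower, 1.37-fold (log2 fold change -0.45 ± 0.13, edgeR, adjusted p = 0.0184). The Ifit calls depend on the libraries. Without KO library 1 the log2 fold change of Ifit1 was -0.59 and passed (edgeR, adjusted p = 0.00719), as it did without WT library 3 (-0.51, adjusted p = 0.0256). Ifit3 did not pass without WT library 1 (adjusted p = 0.0826) or KO library 3 (0.0829), with the length and GC offset (0.0718), with DESeq2 (0.0576) or with limma on log2(FPKM + 1) (0.0746). Ifit3 shares 1700 bases with its neighbour Ifit3b at 97.8% identity, so the split of reads between them is uncertain. Ifit3b moved the same way, from 5.55 ± 0.631 to 4.37 ± 0.417 FPKM (1.32-fold, edgeR, adjusted p = 0.0195).

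Rsad2 and Mx1 encode antiviral effectors. Rsad2 encodes viperin, an enzyme that makes a chain-terminating nucleotide, and it stood at 4.92, 6.30 and 3.94 FPKM in WT and at 3.71, 2.47 and 3.49 in KO. The groups did not overlap, though WT library 3 and KO library 1 were close, and Rsad2 fell 1.62-fold (log2 fold change -0.70 ± 0.17, edgeR, adjusted p = 0.00707). Mx1 encodes a dynamin-like GTPase that blocks influenza-type viruses, and many inbred laboratory strains carry a defective copy. It stood at 1.72, 2.63 and 1.77 FPKM in WT and at 1.43, 1.49 and 1.47 in KO, with WT library 2 far above the other WT libraries. Mx1 fell 1.45-fold (log2 fold change -0.53 ± 0.16, edgeR, adjusted p = 0.0213). That call ended without WT library 2 (log2 fold change -0.31, adjusted p = 0.105), KO library 1 (0.0536) or KO library 3 (0.0601). It also ended with limma on log2(FPKM + 1), at -0.29 (0.0738). Mx1 shares 920 bases with Mx2 at 94.8% identity, so reads may be split between them. Mx2 averaged 1.65 ± 0.0906 FPKM in WT against 1.75 ± 0.158 in KO and did not pass (edgeR, adjusted p = 0.866). The table places Rsad2 (ENSMUSG00000020641) at chr12:26442746-26456452 and Mx1 (ENSMUSG00000000386) at chr16:97447035-97462907, both on the minus strand.

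Zbp1, Ifi44 and Ifi27l2a completed the set, and all 3 fell without overlap. Zbp1 encodes a sensor of left-handed nucleic acid that can start necroptosis through Ripk3. It stood at 4.72, 3.32 and 4.21 FPKM in WT and at 2.46, 2.16 and 2.00 in KO, a 1.92-fold fall (log2 fold change -0.94 ± 0.14, edgeR, adjusted p = 0.000264). Ifi44, an interferon-induced cytoplasmic protein gene, was the lowest of the 10, at 1.89, 1.14 and 1.13 FPKM in WT and 0.661, 0.684 and 0.740 in KO. It fell 2.07-fold (log2 fold change -1.05 ± 0.19, edgeR, adjusted p = 0.00113), and on the log2(FPKM + 1) scale, which shrinks changes of low genes, its log2 fold change was -0.48 (limma, adjusted p = 0.0171). Ifi27l2a, a small membrane protein gene of the ISG12 family, was the highest, at 211, 143 and 163 FPKM in WT and 116, 108 and 108 in KO. It fell 1.61-fold (log2 fold change -0.69 ± 0.11, edgeR, adjusted p = 0.000489). WT library 1 was the highest WT library for each of these 3 genes, and the KO libraries lay close together. The table places Zbp1 (ENSMUSG00000027514) at chr2:173206612-173218923, Ifi44 (ENSMUSG00000028037) at chr3:151730922-151749960 and Ifi27l2a (ENSMUSG00000079017) at chr12:103442167-103443680, all on the minus strand.

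Fold changes in these libraries followed transcript length, which touches the short members. The median log2 fold change was -0.32 over the 1220 tested genes with transcripts of up to 1000 bp and 0.12 over the 4029 above 4000 bp. Ifi27l2a (463 bp) and Isg15 (756 bp) have the shortest transcripts of the 10, and Rsad2 (4189 bp) and Ifi44 (4064 bp) the longest. With the length and GC offset, the log2 fold change of Ifi27l2a shrank from -0.69 to -0.30 (edgeR, adjusted p = 0.0239) and that of Isg15 from -1.09 to -0.79 (adjusted p = 0.00196). Those of Rsad2 and Ifi44 grew to -0.80 (adjusted p = 0.00431) and -1.21 (adjusted p = 0.000565). Of the 10, 7 were called lower with the offset, with a median of -0.66, and Ifit3 was the call that ended. With that offset 16.3% of all tested genes were lower and 14.2% higher.

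The count of 8 was read against other settings in the same way. It was 6 with limma on log2(FPKM + 1) or log2(FPKM + 0.1), where 14.1% and 14% of tested genes were lower. It was 5 with no filter on low values, where 6.15% of genes were lower, and 3 of the 5 members tested at a mean of at least 5 FPKM, where 24.5% were. With the library numbers as a block, 19.7% of genes were lower. Without KO library 1, 2 or 3, 8, 8 and 6 of the 10 genes were lower, against 16.3%, 17.6% and 16.1% of tested genes. Without WT library 1, 2 or 3 the counts were 7, 7 and 9, against 16.1%, 15.9% and 15.4%. With limma on log2(FPKM + 1) 62.8% of all calls were higher in KO, against 51.2% with edgeR.

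**Figure D2:**
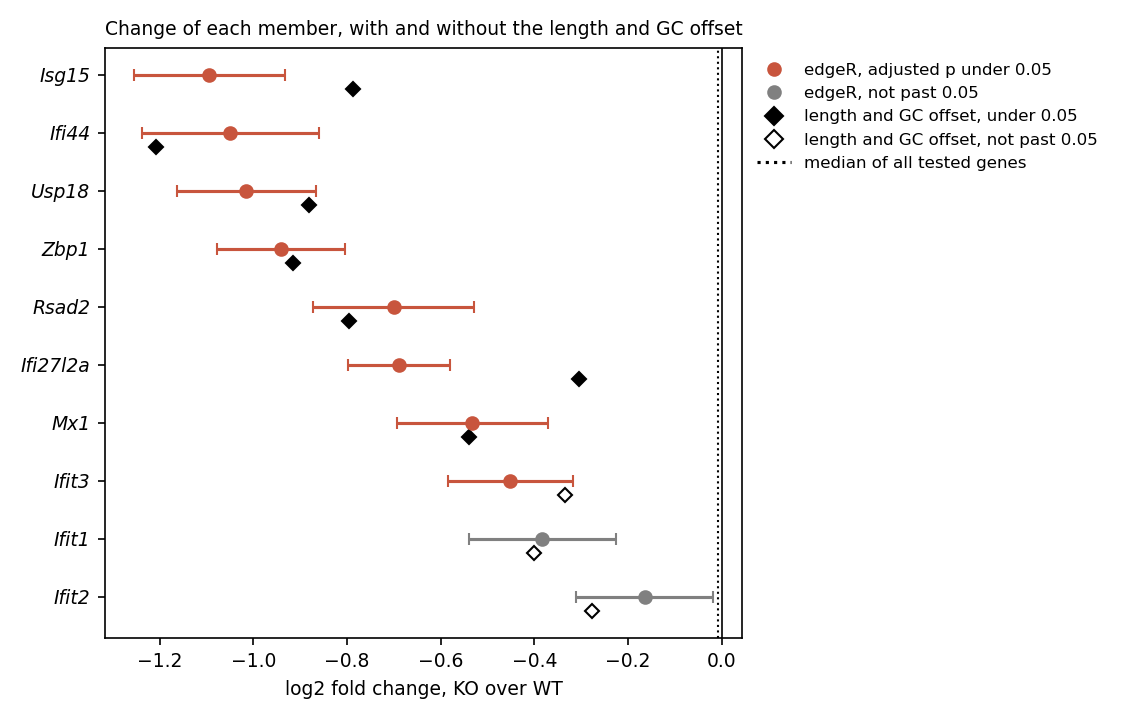
Log2 fold change, KO over WT (x axis), of each of the 10 genes: circles with approximate standard errors for the edgeR fit (red where called, grey where not) and diamonds for the fit with the length and GC offset (filled where called, open where not). All lie left of 0, and the offset moves Ifi27l2a from -0.69 to -0.30 while Ifi44 moves from -1.05 to -1.21.

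The order of the levels, in FPKM, was similar in both genotypes. Ifi27l2a was first in both (172 ± 34.9 in WT and 111 ± 4.24 in KO), well above the others, and Rsad2, Usp18, Zbp1, Mx1 and Ifi44 held places 6 to 10 in both. Isg15, in place 2 in WT, was in place 4 in KO, below Ifit3 (14.8 ± 1.97 FPKM) and Ifit2 (11.4 ± 2.32). Neighbours within 1 SD of each other were Isg15 and Ifit3 in WT (19.5 ± 3.85 FPKM for Ifit3), Ifit1 and Ifit2 in WT (12.8 ± 2.16 and 12.3 ± 2.27), Rsad2 and Usp18 in WT (5.05 ± 1.18 and 4.92 ± 0.780), Ifit2, Isg15 and Ifit1 in KO (10.2 ± 2.40 for Ifit1), and Usp18 and Zbp1 in KO (2.53 ± 0.440 and 2.20 ± 0.232).

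Among libraries of 1 genotype the 10 genes did not vary as a block. In WT, library 1 was the highest for 6 genes (Ifit3, Isg15, Usp18, Ifi44, Zbp1 and Ifi27l2a) and library 2 for the other 4 (Ifit1, Ifit2, Mx1 and Rsad2), while library 3 was the lowest for 6. In KO, library 1 was the highest for 8. Over the deviations of the 6 libraries from their genotype means, on the log2(FPKM) scale, Ifit1 and Ifit2 were most alike (Pearson r = 0.98), followed by Isg15 and Zbp1 (0.92). Mx1 and Zbp1 were least alike (r = -0.87), and the median of the 45 pairs was 0.49. These 6 deviations share the genotype means and have few degrees of freedom, so the values are descriptions.

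**Figure D3:**
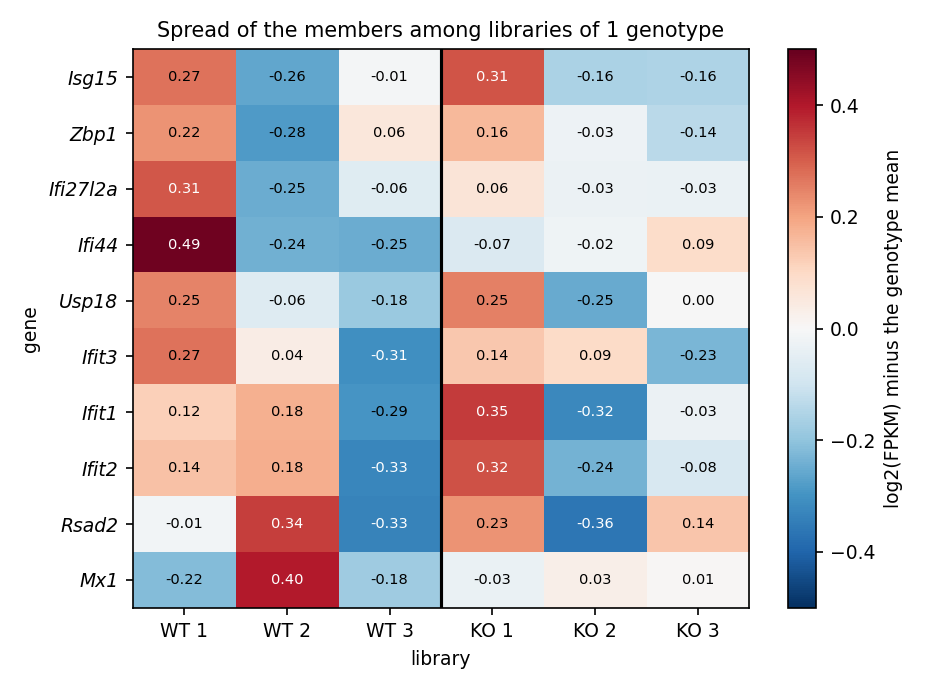
Log2(FPKM) of each gene (rows) in each library (columns) minus the mean of its genotype, in colour and as numbers. Ifi44 in WT library 1 is 0.49 above its mean and Mx1 in WT library 2 is 0.40 above its mean, while Ifit1 and Ifit2 show almost the same row.

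Of 1202 other tested genes with a residual SD of at least 0.15 on the log2(FPKM + 1) scale, the 6 whose deviations were most like the mean deviation of the 10 genes were Magohb (r = 0.998), the pseudogene Gm7392 (0.997), Rpl35a (0.980), CAAA01066123 (0.974), Clba1 (0.973) and Procr (0.961), over 6 libraries. Their genotype differences went both ways: Gm7392 was 2.92-fold lower and Clba1 3.12-fold higher in KO (edgeR, adjusted p = 1.76e-05 and 1.84e-05). None of the 6 is in the interferon lists used here. The 6 were picked as the highest of 1202 correlations, each over 6 deviations with few degrees of freedom. Values this high can arise from such a search alone, so the likeness is a description.

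A list of 55 further interferon-stimulated genes had a smaller median change than the 10 and calls in both directions. Of the 50 tested, 21 fell, 5 rose and 24 did not pass, and the median was -0.18 on the log2 scale. Of all tested genes 19.4% fell and 20.3% rose, so the share of falls was above the background and that of rises below it. This list too was chosen with earlier results of these data known, so that contrast is a description. The falls ranged from 1.12-fold (Sp100) to 2.06-fold (Cxcl10, a chemokine gene that attracts T cells). The 4 with the smallest p were Ly6e (a membrane protein that restricts virus entry), Helz2 (a helicase-domain co-activator), Psmb8 (an immunoproteasome subunit) and Lgals9 (a galectin). Ly6e stood at 128, 91.1 and 102 FPKM in WT and at 64.3, 69.7 and 65.1 in KO, a 1.67-fold fall (edgeR, adjusted p = 0.000117). Helz2 fell 1.55-fold (adjusted p = 0.000127), Psmb8 1.31-fold (0.000178) and Lgals9 1.22-fold (0.000577). The 5 that rose, named after their values were seen, were Parp14, Trim25, Trim30a, Dtx3l and Ddx60, and they rose by 1.09-fold to 1.17-fold. None of these 5 passed with the length and GC offset, where 17 of the 50 were lower and 1, Ifi27, was higher, against 16.3% and 14.2% of all tested genes. Those 17 are not all among the 21, as genes named after their values were seen show. The falls of Ifitm3, Bst2, Rtp4, Lgals3bp, Ube2l6, Dhx58 and Gbp2 ended with the offset, and Samd9l, Adar and Pnpt1 were called lower only with it.

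**Figure D4:**
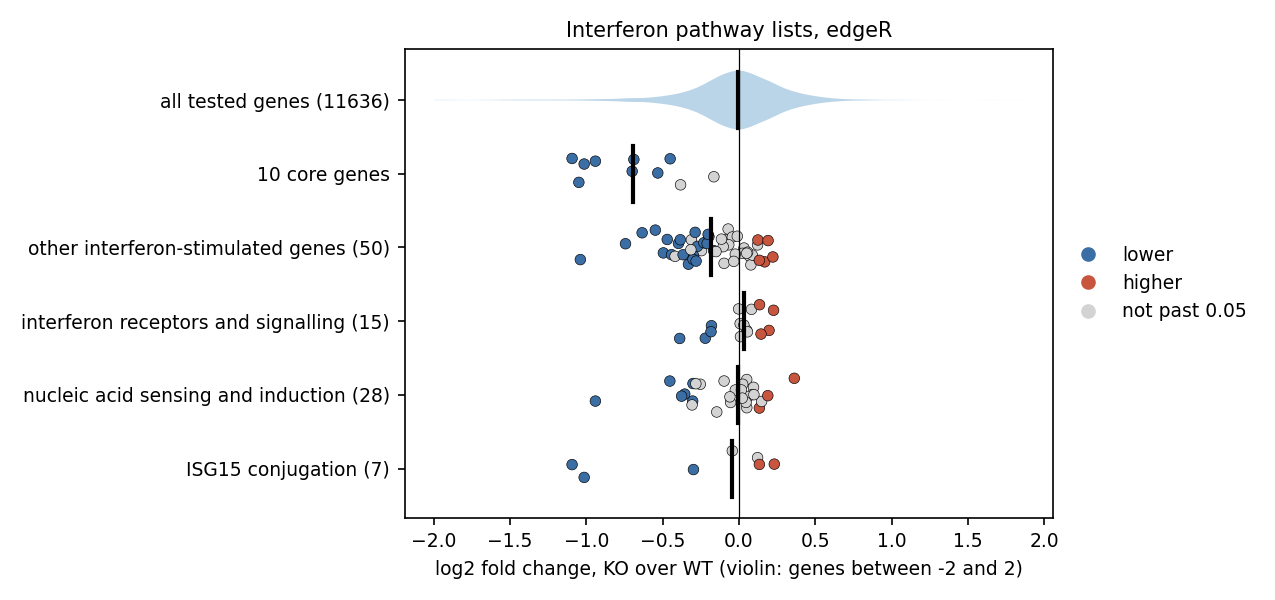
Log2 fold change, KO over WT (x axis), of all tested genes (violin), the 10 core genes and 4 further lists, with 1 point a gene (blue lower, red higher, grey not past the threshold) and a black bar for the median. The medians are -0.69 for the 10 core genes, -0.18 for other interferon-stimulated genes and near 0 for receptors and signalling (0.03).

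Upstream of the 10 genes, interferon RNA was at the edge of detection. Of 21 interferon genes listed, 3 had a row. Ifnb1 had an estimated count of 0 in 5 libraries and 4 in KO library 3, Ifng had 2 in WT library 2 and 0 elsewhere, and Ifnz had 9 to 18 in each library. Receptor and signalling genes went both ways: of 15 tested, 4 rose, 4 fell and 7 did not pass, where 20.3% of all tested genes rose and 19.4% fell, so both counts are near the background. The kinase gene Jak1 rose 1.17-fold, from 45.6 ± 1.22 to 55.4 ± 2.05 FPKM (edgeR, adjusted p = 0.00120), and the interferon gamma receptor gene Ifngr1 rose 1.15-fold (adjusted p = 0.00413). The signalling inhibitor gene Socs3 fell 1.31-fold (adjusted p = 0.00185) and the phosphatase gene Ptpn6 1.14-fold (adjusted p = 0.00462), and the call of Ptpn6 ended with the offset (adjusted p = 0.0951). Named after its values were seen, the transducer gene Stat2 fell 1.13-fold (edgeR, adjusted p = 0.0136). Its partner Irf9 averaged 10.5 ± 0.377 FPKM in WT against 11.1 ± 0.732 in KO, and the type I receptor genes Ifnar1 and Ifnar2 did not pass (adjusted p = 0.239 and 0.446).

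Of 28 genes of nucleic acid sensing and interferon induction, 6 fell, 3 rose and 19 did not pass, and the median was -0.00 on the log2 scale. The count of falls is near the background of 19.4%, and that of rises is under the background of 20.3%. Beside Zbp1, the 3 with the smallest p were the RNA receptor gene Tlr7, which rose 1.29-fold from 68.2 ± 4.62 to 91.0 ± 4.85 FPKM (edgeR, adjusted p = 0.000390), the kinase gene Ripk1, which rose 1.14-fold (adjusted p = 0.00466), and Rnaseh2a, a subunit of the enzyme that removes RNA from DNA, which fell 1.28-fold (adjusted p = 0.00612). With the offset the log2 fold change of Ripk1 was 0.01 and its call ended (adjusted p = 0.922). Irf7, the factor that amplifies interferon production, averaged 16.1 ± 3.54 FPKM in WT against 14.0 ± 1.54 in KO and did not pass (adjusted p = 0.134). The lists share genes, so their counts are not separate observations. Among the 6 falls here, Zbp1 is one of the core genes, and Dhx58 is also on the list of further interferon-stimulated genes. Trim25 is one of the rises in that list, in the ISG15 pathway and in sensing and induction.

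Mean levels of the 12 macrophage genes ranged from those of Cd163 (8.38 ± 0.617 FPKM in WT and 11.4 ± 0.118 in KO) to those of Lyz2 (19286 ± 768 and 16647 ± 88.8). Neutrophil genes, with a median of -4.81 on the log2 scale, fell in KO. Adgre1 (F4/80) averaged 288 ± 5.19 FPKM in WT against 382 ± 7.79 in KO and Mrc1 at 413 ± 15.7 and 631 ± 17.4, both higher in KO, while C1qa and Lyz2 fell 1.27-fold and 1.20-fold. Of 12 macrophage genes, 5 rose and 5 fell. Of all tested genes 20.3% rose and 19.4% fell, which is the background for the neutrophil and monocyte counts as well. With the length and GC offset 5 macrophage genes were higher and 3 lower, against 14.2% and 16.3% of all tested genes. The falls of C1qa and Lyz2 were then 1.09-fold and 1.07-fold. Of 9 tested neutrophil genes 8 fell, with Ltf, Lcn2, Ngp and S100a8 down 25.2-fold to 48.7-fold. Apart from Mmp8, these 8 had KO means under 1 FPKM and entered the test through their WT levels. The count of 8, the median and these folds therefore rest mostly on genes admitted by the group in which they are high. The summed level of 13 neutrophil genes was 86.6 to 174 FPKM in WT and 16.8 to 17.6 in KO. No marker was at 0 in every library, and the part of these genes in the fall of the 10 genes was not tested. Csf3r, which did not pass, averaged 9.79 ± 0.824 FPKM in WT against 9.43 ± 0.515 in KO (edgeR, adjusted p = 0.272). With Mmp8 (4.69 ± 0.270 FPKM in KO) it makes up most of the KO sum. The neutrophil sums of WT libraries 1 to 3 were 86.6, 166 and 174 FPKM, and the sums of the 10 genes were 306, 226 and 235, with 160 to 183 in KO. Ifi27l2a carries most of the latter sum, with 211 of the 306 FPKM in WT library 1, and Ifit1, Ifit2, Mx1 and Rsad2 were highest in WT library 2, so the sum does not describe each of the 10 genes. Nor does the neutrophil sum describe each neutrophil gene. In WT libraries 1 to 3 S100a9 stood at 23.3, 72.1 and 75.6 FPKM, while Ltf (6.98, 6.93 and 6.93) and Mmp8 (8.74, 8.79 and 8.28) were nearly level. Of 7 tested monocyte genes 5 fell and 1 rose: F13a1 fell 1.51-fold, Chil3 9.22-fold and Cx3cr1 1.27-fold, and Ccr2 rose 1.65-fold. Chil3 averaged 3.13 ± 0.510 FPKM in WT and 0.347 ± 0.110 in KO, so it entered the test, and the count of 5, through its WT level. The summed monocyte level overlapped, at 402 to 471 FPKM in WT and 387 to 444 in KO. Markers of plasmacytoid dendritic cells, known producers of interferon, differed in level. Siglech, chosen after its values were seen, was at 0.0501 to 0.151 FPKM, with every KO library above every WT library. The summed level of the 9 markers in the table was 11.7 to 13.2 FPKM in WT and 14.1 to 14.9 in KO, mostly from the 3 tested markers. Of these 3, Tcf4 rose 1.27-fold while Runx2 and Il3ra did not pass. How much RNA came from such cells was not tested. The call of Tcf4 ended with the offset (edgeR, adjusted p = 0.515). Of 9 lymphocyte markers in the table none reached the filter, and their sum was at most 0.612 FPKM in any library.

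**Figure D5:**
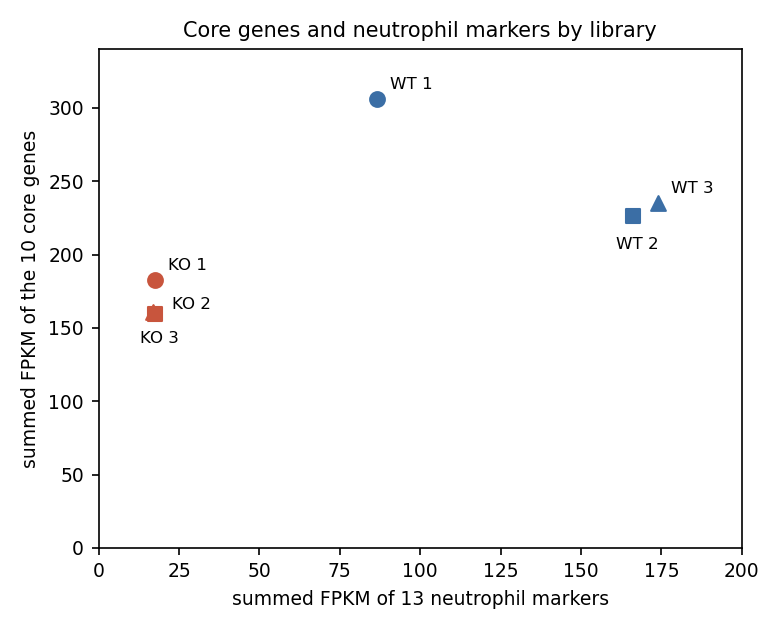
Summed FPKM of the 10 core genes (y axis) against summed FPKM of 13 neutrophil markers (x axis), with 1 point a library (WT blue, KO red). The 3 KO libraries sit together at 16.8 to 17.6 on the x axis and the WT libraries at 86.6 to 174. Ifi27l2a carries most of the y value (211 of 306 FPKM in WT library 1), and Csf3r and Mmp8 most of the x value in KO. Among the WT libraries the x value varies most through S100a9 (23.3, 72.1 and 75.6 FPKM in libraries 1 to 3).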

How the data were processed

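RNA of 3 WT and 3 KO libraries was measured by RNA sequencing after oligo(dT) selection, with dUTP marking of the second strand, per the labels' protocols. The deposited table gives FPKM and estimated counts per gene and library, made by the authors; the deposited estimated counts are whole numbers. The submitters' processing notes name cutadapt 1.9, HISAT2 2.0.4 and StringTie 1.3.4d. The build, and whether counting used the strand, were not given in the sources used here; 24732 of 27382 genes matched to GENCODE M21 (GRCm38) had identical coordinates. The estimated count 4 occurred 5769 times, against 3204 for 3 and 2041 for 5, so counts may overstate the number of fragments, and counts divided by 4 were tried. Totals were 53188659 to 70059042 estimated counts per library.

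A gene was tested where its mean over the 6 libraries reached 1 FPKM, with edgeR 4.0.16 (R 4.3.3; glmQLFit and glmQLFTest, TMM scaling, genotype as the single term), with p-values adjusted over all 11636 tested genes by Benjamini-Hochberg. Standard errors, which are approximate, divide the size of the log2 fold change by the root of the F statistic. The offset used loess (span 0.3) on length and GC content of the longest GENCODE transcript. The edgeR fit and the offset were also run on simulated counts that had the same spread for all genes. For the offset these held a length trend but no GC trend. Those data are simpler than the deposited estimated counts, and the outcome is not given here. Shared sequence was searched with BLAST+ 2.17.0 (at least 80% identity over 200 bases). Alternatives were limma 3.58.1 on log2(FPKM + 1) and log2(FPKM + 0.1), DESeq2 1.42.0, median-ratio scaling, other filters, counts divided by 4, the offset, a replicate block and leaving out each library. The 10 genes and all lists (10, in all) were chosen with earlier results of these data known. Named genes are the 10, the 4 tested genes of each list with the smallest p, interferon genes with a count, the 6 most alike genes and Pebp1. Others are marked as chosen after their values were seen, as are Uba7, Herc6, Trim25, Ifit3b, Mx2, Irf7, Irf9, Ifnar1, Ifnar2, Dhx58, Siglech, Sp100, Cxcl10, Cd163, S100a9, Mmp8 and Csf3r. A result on 1 gene of the signalling list is not reported here.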

Additional observations from a re-analysis of the deposited data

How the results depend on the processing

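All 10 core genes kept a negative log2 fold change in each of the 145 refits over 15 alternatives, with 128 on the same side of the threshold. Isg15, Usp18, Zbp1, Ifi44 and Ifi27l2a passed wherever they were tested. Of the 10, 8 were called lower; leaving out 1 library gave 6 to 9. With a mean of at least 5 FPKM 3 were called, because only Isg15, Ifi27l2a, Ifit1, Ifit2 and Ifit3 could be tested. With no filter on low values 5 were called: Rsad2 (edgeR, adjusted p = 0.0588), Mx1 (0.0901) and Ifit3 (0.116) were lost, and the cause was not tested. Of other interferon-stimulated genes, 21 were called lower, where 19.4% of all tested genes were. It was 13 with limma at either pseudocount (14.1% and 14% of all tested genes) and 10 with no filter (6.15%). Among the other interferon-stimulated genes 5 were called higher, where 20.3% of all tested genes were. With the length and GC offset it was 1 (Ifi27, which is none of the 5), where 14.2% were. The count was 3 with no filter and 1 to 5 with 1 library left out. The cause was not tested. Over all genes, 2364 were higher and 2253 lower (51.2% higher), and 2770 and 1639 with limma on log2(FPKM + 1) (62.8% higher). Whether the replicate numbers pair the libraries was not settled. Deviations of same-numbered libraries correlated at r = 0.02, 0.19 and -0.04, and those of differently numbered ones at -0.17 to 0.16. Such weak correlations cannot exclude a pairing. With the replicate block 2407 genes were higher and 2294 lower, 9 of the 10 core genes were lower, and Ifit1 passed (edgeR, adjusted p = 0.0285). The lowest estimated counts among the 10 genes were those of Ifi44 in KO, 277 to 337, and with counts divided by 4 its log2 fold change was -1.05 ± 0.19, as it was undivided.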

Other observations

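Neighbours of the 10 genes, chosen after their values were seen, gave a mixed picture. Cmpk2, the nucleotide kinase gene beside Rsad2, stood at 4.27, 5.53 and 3.58 FPKM in WT and at 4.44, 3.41 and 3.85 in KO, with overlap, and did not pass (log2 fold change -0.25, edgeR, adjusted p = 0.201). Ifi27, which lies beside Ifi27l2a, stood at 26.3, 28.5 and 26.2 FPKM in WT and at 24.9, 26.9 and 28.4 in KO (log2 fold change -0.07, adjusted p = 0.415). With the length and GC offset Ifi27 was called higher, at 0.19 (adjusted p = 0.0469). Whether these genes differ from Rsad2 and Ifi27l2a in their response was not tested. Among partners of Zbp1, Ripk3 fell 1.23-fold, from 11.3 ± 0.990 to 9.50 ± 0.942 FPKM (adjusted p = 0.0152), a call that ended with the offset (adjusted p = 0.137), and Mlkl averaged 7.42 ± 0.336 FPKM in WT against 7.39 ± 0.624 in KO.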
